A study of Mus musculus with 8 samples.

Results

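The enzymes that make and degrade prostanoids were followed in cultured mouse aortic smooth muscle cells (MASMCs) from WT and *Hint1*-/- mice. They were taken by gene symbol as 10 of the 18533 symbols in the count files: the cyclooxygenases *Ptgs1* and *Ptgs2*, the prostaglandin E synthases *Ptges*, *Ptges2* and *Ptges3*, the prostacyclin synthase *Ptgis*, the prostaglandin D synthases *Ptgds* and *Hpgds*, the thromboxane synthase *Tbxas1* and the prostaglandin dehydrogenase *Hpgd*. Poly(A) RNA was sequenced from 4 WT samples and 4 *Hint1*-/- samples, each from MASMCs of male mice (4 to 6 weeks old by the study's methods) kept in 20 ng/ml PDGF-BB, a growth factor, for 24 h. The study's methods describe primary cells from digested aortas after the adventitia and endothelium were removed, from the thoracic aorta in one place and the whole aorta in another. The caption of the study's figure on this RNA comparison names the whole aorta. All 8 samples had PDGF-BB, so the effect of the growth factor itself cannot be read here. Whether the 4 samples of a genotype came from separate mice or cultures is not stated, so the p-values measure the spread between these samples, which may be technical.

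Total counts ran from 20778077 to 20888041 per sample, and 13535 genes had enough counts to be tested. A level is given in CPM (the gene's counts over the sample's total, scaled to a common size) as mean ± SD over the 4 samples of a genotype, and a log2 fold change is *Hint1*-/- against WT with its SE. A gene was called at both limits when the adjusted p was under 0.05 and the fold change over 1.5, and the adjusted p alone was read as a second, looser call. *Hint1* had 2272, 2336, 2364 and 2301 counts in the WT samples and 713, 748, 778 and 715 in the *Hint1*-/- samples. The targeted gene was lower in each *Hint1*-/- sample than in any WT sample (log2 fold change -1.64, SE 0.0373, adjusted p = 6.77e-16), and transcripts were still counted in all 4 of the *Hint1*-/- samples.

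The cell type on the label was checked against 10 smooth muscle markers. All 10 were in the files and 9 had enough counts to be tested. The most abundant in counts was *Cald1*, with 23201 to 25051 over the 8 samples. Per kilobase of exon *Acta2* stood above *Cald1*, at 376 against 95.6 CPM per kilobase in WT cells. Summed over the list, WT cells held 2598 ± 64.1 CPM and *Hint1*-/- cells 2366 ± 42.8 CPM. The markers differed widely in level in WT cells, with *Cald1* at 1151 and *Acta2* at 826 CPM. *Myh11* was at 20.4, *Cnn1* at 15.1, *Des* at 2.47 and *Myocd*, too low to test, at 0.562 CPM. At the adjusted p 6 of the 9 fell, against 10.2% of all genes tested, and 1 rose, against 11.2%. *Smtn* was the gene that rose. *Cnn1*, *Myh11* and *Des* fell past both limits, which 2.83% of all genes passed in either direction. *Smtn*, *Cnn1*, *Myh11*, *Des*, *Myocd* and *Acta2* are named after their values were seen. Transcripts of other cell types were present too: 10 macrophage markers summed to 2239 ± 132 CPM in WT cells, most of it *Lyz2*, and 8 fibroblast markers to 5449 ± 227 CPM, most of it *Col1a1*. Per kilobase of exon, *Lyz2* at 913 and *Col1a1* at 562 CPM stood above *Acta2* in WT cells. In bulk RNA, fewer cells of a type and less RNA per cell cannot be told apart.

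Prostanoids are made from arachidonic acid that phospholipases free from membranes. A cyclooxygenase turns it into prostaglandin H2, and terminal synthases turn that into prostaglandin E2, prostaglandin D2, prostacyclin or thromboxane A2. Prostacyclin relaxes arterial smooth muscle and restrains platelets, thromboxane does the reverse, and the dehydrogenase encoded by *Hpgd* inactivates E-series prostaglandins once they are taken up into cells.

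The degrading enzyme moved most. *Hpgd* rose 4.91-fold in *Hint1*-/- MASMCs from a very low level, both cyclooxygenases and prostacyclin synthase rose by 1.12-fold to 1.21-fold, and *Hpgds* fell to 0.85 of its WT level. Of the 10 enzymes, 9 were tested and *Ptgds* was too low. The enzymes and all gene lists here were chosen with earlier results of these data known. Their counts beside the shares of all genes are therefore a description and not a test. At the adjusted p alone 5 of the 9 were called, against 21.5% of all genes tested. Of these 5, 4 were higher, against 11.2% of all genes, and 1 was lower, against 10.2%. Past both limits there was 1, *Hpgd*, against 2.83% of all genes in either direction and 1.34% in the higher direction. The 2 genotypes did not overlap in CPM for 4 enzymes, *Ptgs1*, *Ptgs2*, *Ptgis* and *Hpgd*, against 23.0% of all genes. The median log2 fold change was 0.16 over the 9 enzymes and 0.0003 over all genes tested.

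**Figure D1:**
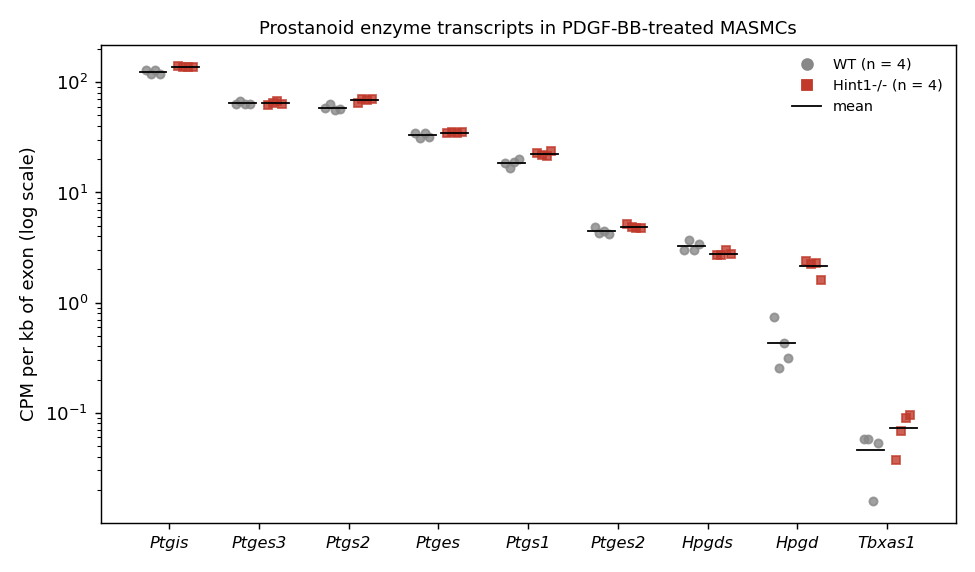
Levels of 9 prostanoid enzymes in each sample, in CPM per kilobase of exon on a log axis, with 4 WT samples (circles), 4 *Hint1*-/- samples (squares) and the mean of each genotype (line). *Ptgds*, with 0 counts in 6 of the 8 samples, is not drawn; the widest step between genotypes is that of *Hpgd*, from 0.434 to 2.14 CPM per kilobase.

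*Ptgs1* encodes the cyclooxygenase found at a steady level in many tissues (chr2:36230426-36252272, plus strand, GRCm38). It had 1491, 1372, 1551 and 1649 counts in the WT samples and 1829, 1764, 1746 and 1916 in the *Hint1*-/- samples. All 4 *Hint1*-/- samples lay above the highest WT sample. *Ptgs1* rose from 72.5 ± 5.68 to 87.4 ± 3.70 CPM (log2 fold change 0.27, SE 0.0483, adjusted p = 0.000445). Its estimated counts were not whole numbers in any of the 8 samples, so part of its reads was shared out between features; the same held for *Ptges*, *Tbxas1* and *Hpgds*. An antisense gene model, *Gm43621*, shares 148 exon bases with *Ptgs1* and another, *Gm42962*, 144 with *Tbxas1*, and whether the counting used strand is not given in the sources used here. *Ptgis* also shares exon bases with an antisense model and was whole in all 8 samples, and *Ptges* and *Hpgds* share 0 exon bases with another gene model. The part of exon overlap in the fractional counts was not tested.

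*Ptgs2* encodes the cyclooxygenase that growth factors and cytokines induce (chr1:150100031-150108227, plus strand). It had 5596, 6087, 5396 and 5431 counts in WT MASMCs and 6222, 6671, 6535 and 6730 in *Hint1*-/- MASMCs. The groups did not overlap, and WT sample 2 came nearest to the *Hint1*-/- samples. *Ptgs2* rose from 269 ± 14.6 to 315 ± 10.96 CPM (log2 fold change 0.23, SE 0.0391, adjusted p = 0.000305). With each level divided by the length of the gene's exons, *Ptgs2* exceeded *Ptgs1* in every sample, by a ratio of 3.17 ± 0.425 in WT and 3.06 ± 0.155 in *Hint1*-/- cells. The ratio ranged from 2.79 to 3.76 in WT samples and from 2.89 to 3.21 in *Hint1*-/- samples, and these ranges overlapped.

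The 3 prostaglandin E synthases did not pass the test. *Ptges*, the inducible membrane enzyme (chr2:30889471-30929863, minus strand), had 2597 to 2848 counts in WT and 2811 to 2891 in *Hint1*-/- samples, at 130 ± 6.79 and 138 ± 1.88 CPM (log2 fold change 0.08, SE 0.0372, adjusted p = 0.127). *Ptges2*, a second membrane-associated enzyme (chr2:32395896-32405772, plus strand), had 447 to 516 counts in WT and 498 to 545 in *Hint1*-/- samples (log2 fold change 0.13, SE 0.0567, adjusted p = 0.116). Both pairs of groups overlapped. Without WT sample 1, which held the highest WT count of *Ptges2*, its log2 fold change was 0.17 with an adjusted p = 0.0433, and over the 16 alternative analyses its adjusted p ran from 0.0433 to 0.282. *Ptges3*, the cytosolic enzyme also known as the HSP90 co-chaperone p23 (chr10:128058954-128077272, plus strand), had means that differed by less than 1 SD, at 144 ± 4.80 and 143 ± 4.16 CPM (log2 fold change -0.0060, SE 0.0347, adjusted p = 0.926).

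*Ptgis* encodes prostacyclin synthase, a cytochrome P450 family enzyme of the vessel wall (chr2:167191805-167240604, minus strand). It had 6961, 6373, 6874 and 6315 counts in the WT samples and 7428, 7329, 7401 and 7282 in the *Hint1*-/- samples. The *Hint1*-/- samples lay close together and all above the WT samples. *Ptgis* rose from 317 ± 16.4 to 355 ± 3.16 CPM (log2 fold change 0.16, SE 0.0360, adjusted p = 0.00304), the smallest change among the 5 enzymes called. Its exons share 156 bases with an antisense gene model, *1110018N20Rik*. Per length, *Ptgis* stood 2.11 ± 0.182 times above *Ptgs2* in WT and 2.01 ± 0.0880 times in *Hint1*-/- cells, and these ratios overlapped. Its ratio to *Ptges*, which draws on the same substrate, was 3.74 ± 0.0140 in WT (3.72 to 3.75) and 3.95 ± 0.0810 in *Hint1*-/- cells (3.86 to 4.03), without overlap; this ratio is a description and was not put to a test.

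The 2 prostaglandin D synthases differed in level. *Ptgds*, the lipocalin-type enzyme (chr2:25466709-25470046, minus strand), had 0 counts in all 4 WT samples and 0, 0, 1 and 2 in the *Hint1*-/- samples. A count of 0 allows up to 0.144 CPM in a library of this depth, so a difference between genotypes was not detectable. *Hpgds*, the hematopoietic-type enzyme found in mast cells, macrophages and some T cells (chr6:65117293-65144908, minus strand), had 402, 501, 407 and 454 counts in WT and 358, 361, 403 and 366 in *Hint1*-/- samples. The *Hint1*-/- samples were the lower ones except sample 3, whose 403 counts passed the lowest WT sample. *Hpgds* fell from 21.1 ± 2.17 to 17.9 ± 0.975 CPM (log2 fold change -0.23, SE 0.0700, adjusted p = 0.0217). This call depended on single samples: the log2 fold change was -0.17 (adjusted p = 0.0703) without WT sample 2, -0.22 (0.0627) without *Hint1*-/- sample 1, -0.22 (0.0585) without *Hint1*-/- sample 2 and -0.23 (0.0583) without *Hint1*-/- sample 4. Over the 16 alternatives the adjusted p of *Hpgds* ran from 0.0131 to 0.0703.

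The summed level of macrophage markers was lower in the *Hint1*-/- samples too. The 10 macrophage markers summed to 2112, 2243, 2179 and 2420 CPM in the WT samples and to 1732, 1851, 1827 and 1765 CPM in the *Hint1*-/- samples, 80.1% of the WT mean. *Hpgds* stood at 85.0% of its WT mean. Of the 9 macrophage markers tested 6 fell at the adjusted p, against 10.2% of all genes tested. Past both limits there were 0 with edgeR, DESeq2 or limma-voom, where edgeR gave 2.83% of all genes. At an unadjusted p under 0.05 with the same fold there were 0 as well. Not every marker was lower: *Mrc1*, *C1qa* and *C1qb*, each under 2 CPM on average in both genotypes, stood at 150%, 134% and 148% of their WT means and were not called, *C1qa* being too low to test, while *Itgam* was lower, at 97.3%, and was not called. These 4 are named after their values were seen. No marker of the list was at 0 in every sample. The most abundant, *Lyz2*, had 23425 to 27662 counts in WT and 19497 to 20726 in *Hint1*-/- samples. Mast cell markers were near the floor: the 7 in the files summed to 1.42 ± 0.182 CPM in WT and 1.37 ± 0.232 CPM in *Hint1*-/- cells, most of it *Hdc* at 18 to 27 counts. The part of macrophage transcripts in the lower *Hpgds* was not tested.

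**Figure D2:**
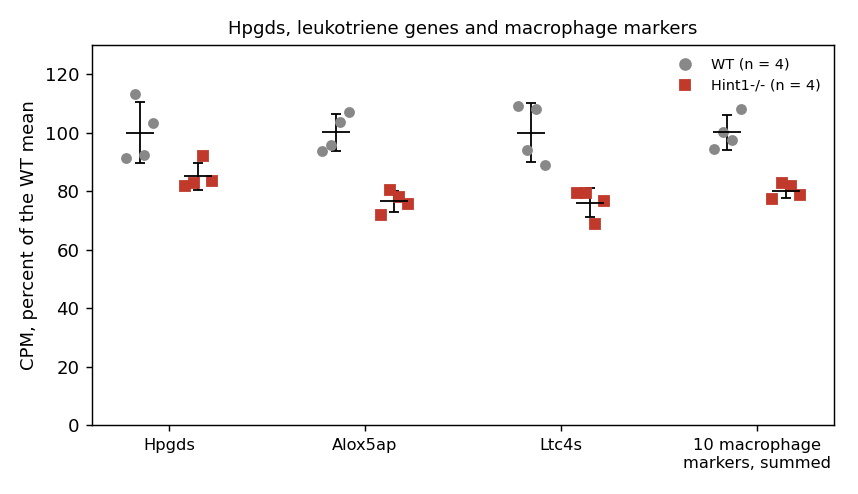
Levels of *Hpgds*, of the leukotriene genes *Alox5ap* and *Ltc4s* and of 10 summed macrophage markers, in percent of the WT mean CPM, with each of the 4 WT (circles) and 4 *Hint1*-/- (squares) samples, the mean (horizontal tick) and SD (bars). The *Hint1*-/- samples lie between 81.9% and 91.9% for *Hpgds* and between 77.4% and 82.7% for the macrophage markers.

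*Tbxas1*, thromboxane synthase (chr6:38875404-39084585, plus strand), had 11, 11, 3 and 10 counts in WT and 7, 13, 17 and 18 in *Hint1*-/- samples. The groups overlapped and every value was low. The test gave 0.66 on the log2 scale (SE 0.367, adjusted p = 0.226). It was 0.37 (adjusted p = 0.522) without WT sample 3, and over the 15 alternatives that tested *Tbxas1* the adjusted p ran from 0.105 to 0.522. Platelets and macrophages are the known sources of this enzyme. In *Hint1*-/- samples the summed macrophage markers stood at 80.1% of their WT mean and *Tbxas1*, at these low counts, at 158%. The part of platelet or macrophage transcripts in the level of *Tbxas1* was not tested. The 7 platelet markers, led by *Gp1bb*, summed to 11.3 ± 1.45 CPM in WT and 11.5 ± 0.696 CPM in *Hint1*-/- cells. Of the 4 tested 0 were called by edgeR, DESeq2 or limma-voom, where edgeR called 21.5% of all genes, and 1 was at an unadjusted p under 0.05.

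*Hpgd* encodes the NAD-dependent 15-hydroxyprostaglandin dehydrogenase, the first step in breaking down prostaglandins E2 and F2α (chr8:56294585-56321043, plus strand). It had 26, 9, 15 and 11 counts in the WT samples and 84, 78, 81 and 56 in the *Hint1*-/- samples. The groups stood well apart, with 56 counts in the lowest *Hint1*-/- sample against 26 in the highest WT sample. *Hpgd* rose from 0.730 ± 0.365 to 3.60 ± 0.615 CPM (log2 fold change 2.29, SE 0.237, adjusted p = 9.46e-07). Pooled counts were 61 in WT and 299 in *Hint1*-/- cells, a ratio of 4.90 with an exact 95% interval of 3.71 to 6.56 for counting error. With any 1 sample left out, the log2 fold change stayed between 2.11 and 2.68 and past both limits. A filter asking for 10 counts in every sample dropped *Hpgd* before the test, because WT sample 2 had 9.

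Some cell type lists were higher or lower in the samples where *Hpgd* was high. The 8 fibroblast markers summed to 5740, 5339, 5502 and 5215 CPM in WT and 6040, 5928, 5717 and 6123 CPM in *Hint1*-/- samples. At the adjusted p 3 of the 8 were higher (*Pdgfra*, *Dcn* and *Lum*), against 11.2% of all genes tested. Another 3 were lower (*Dpt*, *Col1a1* and *Col14a1*), against 10.2%. These were named after their values were seen except *Col1a1*. The most abundant fibroblast marker, *Col1a1*, fell (log2 fold change -0.17, SE 0.0453, adjusted p = 0.0126). The 7 mesothelial markers summed to 6.999, 6.19, 6.02 and 6.61 CPM in WT and 10.9, 8.79, 7.64 and 11.02 CPM in *Hint1*-/- samples. Only 2 of these were tested, and *Krt19*, the most abundant, was the 1 that rose, against 11.2% of all genes (log2 fold change 0.84, SE 0.119, adjusted p = 4.2e-05). *Krt19* alone carried the higher sum, from 4.59 ± 0.419 to 8.22 ± 1.39 CPM. Of the other 6, named after their values were seen, *Upk3b*, *Upk1b*, *Msln* and *Bnc1* stood at 80.6%, 40.8%, 75.5% and 95.1% of their WT means, and *Wt1* and *Lrrn4*, each under 0.1 CPM on average in both genotypes, at 101% and 176%. The 8 Schwann cell markers, led by *Ngfr*, summed to 56.8, 56.6, 55.4 and 50.3 CPM in WT and 15.3, 12.9, 14.1 and 13.5 CPM in *Hint1*-/- samples. Of the 8, 7 were lower past both limits, against 2.83% of all genes in either direction. The 8 endothelial markers, led by *Cdh5*, summed to 7.95 ± 1.12 CPM in WT and 7.43 ± 0.904 CPM in *Hint1*-/- cells. Of 6 tested 0 were called by edgeR, DESeq2 or limma-voom, where edgeR called 21.5% of all genes, and 2 were at an unadjusted p under 0.05. The part of these cell type lists in the level of *Hpgd* was not tested.

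Levels of different genes were compared per kilobase of exon. In WT MASMCs the order was *Ptgis* (124 ± 6.38 CPM per kilobase), *Ptges3* (64.8 ± 2.17), *Ptgs2* (58.7 ± 3.19), *Ptges* (33.1 ± 1.73), *Ptgs1* (18.7 ± 1.46), *Ptges2* (4.49 ± 0.296), *Hpgds* (3.28 ± 0.337), *Hpgd* (0.434 ± 0.217), *Tbxas1* (0.0460 ± 0.0203) and *Ptgds* at 0. Some of these levels depend on the length used: with the longest transcript *Tbxas1* stood at 0.0917 and *Hpgds* at 5.42 CPM per kilobase. With all exons no neighbours in this order overlapped in the counted values, although the lowest *Ptges3* value, 63.5, nearly met the highest *Ptgs2* value, 63.3. For *Tbxas1* and *Ptgds* no separation was shown within a sample, since a count of 0 allows up to 0.144 CPM of *Ptgds*. In *Hint1*-/- MASMCs *Ptgs2* (68.8 ± 2.39) had passed *Ptges3* (64.5 ± 1.88), but these 2 overlapped, as did *Tbxas1* and *Ptgds*. *Hpgd* stood at 2.14 ± 0.365 CPM per kilobase, below *Hpgds* at 2.79 ± 0.152 without overlap, a ratio of 1.3 that was 2.15 with the longest transcript in place of all exons. With that length *Hpgds* also came above *Ptges2* in WT cells with overlap, and the same pair overlapped in *Hint1*-/- cells. *Ptges3* and *Ptgs2* overlapped in *Hint1*-/- cells in the opposite order. The counted values of *Tbxas1* (lowest 0.0740) and *Ptgds* (highest 0.0726) no longer overlapped in *Hint1*-/- cells. *Ptgds* had 0 to 2 counts in these samples, so no separation was shown.

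For the 4 called enzymes with at least 50 counts on average, the 3 genes nearest in pattern over the 8 samples were sought among all genes tested, by the root mean square difference of centred log2 CPM. *Ptgs1* was nearest to *Septin5* (0.0135), *Sphk1* (0.0324) and *Zmym1* (0.0396). *Ptgs2* was nearest to *Slc39a10* (0.0243), *Nusap1* (0.0269) and *Gzf1* (0.0304), and *Ptgis* to *Unc5b* (0.0212), *Tmem214* (0.0256) and *Caskin2* (0.0271). *Hpgds* was nearest to *Eps8* (0.0337), *Hs3st3b1* (0.0493) and *Etv1* (0.0516). The log2 fold changes of these neighbours were 0.22 to 0.27 for the cyclooxygenases, 0.14 to 0.18 for *Ptgis* and -0.21 to -0.17 for *Hpgds*. The pattern includes the step between genotypes, so the choice itself brings these changes near those of the enzymes. How near the closest genes would come by chance was not tested.

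Beyond the 10 enzymes, 47 genes of the surrounding pathway were listed, 46 were in the files and 35 were tested. At the adjusted p alone 2 of the 35 were higher, against 11.2% of all genes tested, and 9 were lower, against 10.2%. Past both limits there were 2, the lipases *Pla2g7* and *Mgll*, against 2.83% of all genes. Their median log2 fold change was -0.04, beside 0.16 for the 10 enzymes' 9 tested genes and 0.0003 for all genes. The single lists are small, from 5 to 11 genes tested, and their counts are to be read beside the same shares of all genes. Several genes in the next sentences fall outside the rule for naming genes and were picked out after their values were seen.

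Of the 5 other prostaglandin-forming enzymes, 1 rose (11.2% of all genes did) and 1 fell (10.2%). *Akr1c18*, a member of the aldo-keto reductase family, had 175 to 282 counts in WT and 258 to 310 in *Hint1*-/- samples (log2 fold change 0.37, SE 0.104, adjusted p = 0.0157). Without *Hint1*-/- sample 3 its log2 fold change was 0.34 and its adjusted p 0.0508, and over the 16 alternatives it ran from 0.000633 to 0.0508. *Akr1b3*, aldose reductase, which can also form prostaglandin F2α, fell from 443 ± 53.9 to 341 ± 28.5 CPM (log2 fold change -0.38, SE 0.0681, adjusted p = 0.000498). *Gstm2*, the most abundant of the 4 with an annotated length, was at 72.3 CPM per kilobase in WT and 72.5 in *Hint1*-/- cells.

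Of the lipases that release arachidonic acid or act on neighbouring lipids, 16 of 17 were in the files and 11 were tested. *Pla2g4a*, the cytosolic phospholipase A2 that feeds the cyclooxygenases and the most abundant of the list per length, stood at 145 ± 5.57 CPM in WT cells, against 138 ± 4.88 CPM in the *Hint1*-/- samples, and was not called (log2 fold change -0.08, SE 0.0366, adjusted p = 0.155). *Mgll*, monoacylglycerol lipase, had 197, 206, 211 and 216 counts in WT and 137, 143, 128 and 131 in *Hint1*-/- samples, without overlap, and fell (log2 fold change -0.61, SE 0.0768, adjusted p = 1.0e-05). *Pla2g7*, the platelet-activating factor acetylhydrolase, had 14, 17, 17 and 15 counts in WT and 38, 45, 36 and 20 in *Hint1*-/- samples, and rose (log2 fold change 1.15, SE 0.246, adjusted p = 0.00226). *Pla2g5*, a secreted phospholipase A2, fell from 46.3 ± 3.22 to 31.0 ± 2.06 CPM (log2 fold change -0.58, SE 0.0548, adjusted p = 3.3e-07), just inside the fold limit of 0.585 on that scale. It passed that limit under upper-quartile scaling (-0.59) and without WT sample 3 (-0.62) or *Hint1*-/- sample 3 (-0.63). *Pla2g4c* fell as well (log2 fold change -0.38, SE 0.113, adjusted p = 0.0198), but its adjusted p was 0.0543 to 0.0686, with log2 fold changes of -0.36 to -0.30, in the 5 analyses that left out WT sample 1 or 2 or *Hint1*-/- sample 1, 3 or 4 (0.000827 to 0.0686 over all 16).

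Of 6 transport and clearance genes tested 1 fell, or 16.7% against 10.2% of all genes, below the 21.5% of all genes called in either direction. It was the efflux carrier *Abcc4*, from 42.3 ± 2.21 to 35.2 ± 1.45 CPM (log2 fold change -0.27, SE 0.0465, adjusted p = 0.000340). *Slco2a1*, the carrier that brings prostaglandins to the dehydrogenase and the most abundant of the list per length, had 6218 to 6966 counts in WT and 6670 to 7120 in *Hint1*-/- samples (log2 fold change 0.07, SE 0.0369, adjusted p = 0.194). Of 9 receptors 6 were tested and 2 fell, against 10.2% of all genes, the prostacyclin receptor *Ptgir* (61.8 ± 2.14 to 54.6 ± 1.96 CPM, log2 fold change -0.18, SE 0.0389, adjusted p = 0.00273) and the thromboxane receptor *Tbxa2r* (-0.24, SE 0.0643, adjusted p = 0.0110). *Ptgir* was lower in all 4 *Hint1*-/- samples, where *Ptgis* was higher.

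The lipoxygenase branch shares the substrate arachidonic acid. Of 10 genes 7 were tested, and 2 fell, against 10.2% of all genes: *Alox5ap*, the 5-lipoxygenase activating protein and the most abundant per length, from 49.3 ± 3.09 to 37.7 ± 1.77 CPM (log2 fold change -0.39, SE 0.0484, adjusted p = 9.5e-06), and *Ltc4s*, leukotriene C4 synthase, from 7.60 ± 0.773 to 5.78 ± 0.375 CPM (-0.39, SE 0.0949, adjusted p = 0.00543). Both genes are expressed in macrophages, whose summed markers stood at 80.1% of the WT mean against 76.5% for *Alox5ap* and 76.1% for *Ltc4s*. Of the same branch, *Alox5* at 91.6% and *Lta4h* at 97.1% of their WT means were not called (adjusted p = 0.109 and 0.498). The part of macrophage transcripts in these differences was not tested.

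**Figure D3:**
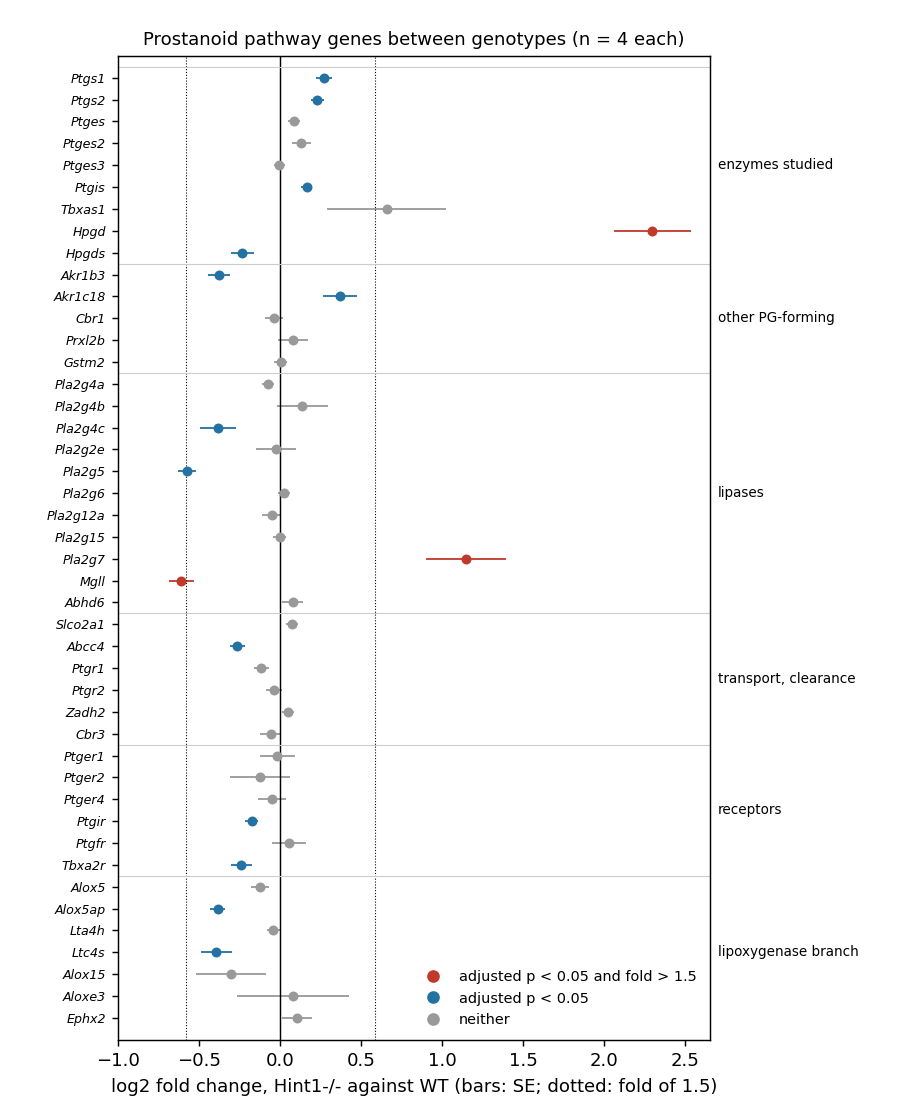
Log2 fold changes of *Hint1*-/- against WT for the 9 enzymes tested and 35 genes of the surrounding pathway, with SE bars and dotted lines at a fold of 1.5. Red points passed both limits, blue points the adjusted p alone; *Hpgd*, at 2.29, lies farthest from 0.

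The 250 bases before the start in the RefSeq promoter table were searched on both strands for 4 short motifs in the 9 enzymes with a RefSeq entry (GRCm38.p6); *Ptgis* had none. These starts are not always those of the GENCODE spans given above: the windows of *Ptges*, *Ptgds* and *Tbxas1* (chr6:38918736-38918985) lie inside the printed spans, and those of *Ptges3* and *Hpgds* partly so. The palindrome GCCNNNGGC, the core bound by AP-2 factors, was present in 4 of the 9, *Ptgs2*, *Ptges3*, *Hpgd* and *Hpgds*, and in 13.7% of 32851 mouse promoter windows of the same length. CACGTG, an E-box, was present in *Ptges2* only (6.02% of windows), TATAAA in the internal window of *Tbxas1* only (12.4%), and ACGTCA, the core of the cAMP response element, in none (6.47%). CACGTG and ACGTCA can share bases, and none of these matches overlapped another motif. The windows of the enzyme called at both limits and of the 2 cyclooxygenases, which rose together, are shown 5′ to 3′ with the palindrome in capitals. They lie at chr8:56294302-56294551 for *Hpgd*, chr1:150099781-150100030 for *Ptgs2* and chr2:36230176-36230425 for *Ptgs1*, all on the plus strand. The palindrome lay at -201 to -193 in *Hpgd* and at -136 to -128 in *Ptgs2*, counted from the start, and none of the 4 motifs was in the *Ptgs1* window.
Hpgd: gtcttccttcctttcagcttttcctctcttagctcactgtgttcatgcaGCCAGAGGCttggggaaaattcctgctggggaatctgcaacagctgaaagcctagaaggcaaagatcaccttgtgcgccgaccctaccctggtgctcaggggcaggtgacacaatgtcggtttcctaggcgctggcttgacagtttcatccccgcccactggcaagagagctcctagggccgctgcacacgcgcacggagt
Ptgs2: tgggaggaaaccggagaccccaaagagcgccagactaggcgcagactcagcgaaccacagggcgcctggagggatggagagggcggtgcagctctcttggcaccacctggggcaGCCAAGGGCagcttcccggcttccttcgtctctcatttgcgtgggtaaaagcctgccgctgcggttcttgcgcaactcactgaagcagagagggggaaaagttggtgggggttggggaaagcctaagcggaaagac
Ptgs1: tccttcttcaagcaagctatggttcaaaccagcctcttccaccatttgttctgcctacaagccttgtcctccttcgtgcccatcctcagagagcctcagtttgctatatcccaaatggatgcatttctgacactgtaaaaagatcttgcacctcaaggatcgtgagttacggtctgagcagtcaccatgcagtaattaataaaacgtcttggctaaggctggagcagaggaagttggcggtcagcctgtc
A match describes the letters in the window and says nothing of binding there.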

How the data were processed

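The authors deposited estimated counts per gene for each of 8 samples; the submitters' processing notes name Bowtie2, RSEM 1.3.1, DESeq2 1.4.5 and the mm10 genome, the study's methods name HISAT2, and the annotation is not given in the sources used here. Estimated counts were rounded and tested with edgeR 4.0.16 (quasi-likelihood test, filterByExpr, TMM, genotype only) in R 4.3.3, with Benjamini-Hochberg adjustment over 13535 genes. CPM used TMM library sizes. Gene lengths and positions came from GENCODE M21 and promoter windows from RefSeq. The test was checked at both limits on simulated data, with noise estimated from these samples. It recovered 96.5% of 200 genes changed 2-fold and 99.5% of 200 changed 4-fold, with 6 and 4 false calls. With no gene changed it called 4 of 13535. Smaller changes and calls at the adjusted p alone were not simulated. The members and lists were chosen with earlier results of these data known. Named were the 10 enzymes, *Hint1*, pathway genes past both limits, the most abundant gene of each list, per length in the pathway lists, list genes at 0 in every sample, and the 3 genes nearest in pattern to called enzymes; others are named as seen afterward. Exact intervals and zero limits (3 counts) cover counting error only. Alternatives were other normalizations, filters, DESeq2 1.42.0, limma-voom (limma 3.58.1), a replicate block, no fold limit, each sample left out and another gene length.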

Additional observations from a re-analysis of the deposited data

Results flagged for a closer look

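In 2 of 52 groups of 4 samples 1 sample stood apart from the rest when its gap to the nearest other, taken in log2 CPM with a prior count of 2 for genes, log2 CPM for marker sums and counts for library totals, was divided by the group's range (Dixon's ratio, above its 95% limit for 4 samples); chance gives about 1 in 20 groups, or 2.6 here. In WT MASMCs *Ptges3* had 3165 counts in sample 2 and 2937 to 2957 in samples 1, 3 and 4 (ratio 0.941). *Tbxas1* had 3 counts in WT sample 3 against 10 to 11 in WT samples 1, 2 and 4 (ratio 0.915).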

How the results depend on the processing

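The enzymes called at both limits numbered 1, and 1 with any sample left out (1 to 1), but 0 when 10 counts were required in every sample, since *Hpgd* was then not tested, and 5 with no fold limit. Pathway genes called numbered 2 (2 to 3 with a sample left out, 11 with no fold limit); *Pla2g5* was the gene added, also under upper-quartile scaling. All genes called numbered 383 (350 to 390 with a sample left out, 2907 with no fold limit). At the adjusted p alone these ranges were 4 to 6, 9 to 11 and 2258 to 2909, and *Hint1* ran from -1.66 to -1.62. *Ptges3* ran from -0.025 to 0.018 with a sample left out and turned higher, to 0.018 without WT sample 2 and 0.0084 without *Hint1*-/- sample 1, never called; the cause was not tested. *Ptgs1*, *Ptgs2* and *Ptgis* held their direction and adjusted p call in all 16 alternatives fitted, and *Hpgd* in the 15 that tested it; *Hpgds* lost its call in 4 and *Ptges2* gained one in 1, all with a sample left out. Whether the sample numbers pair the samples is not stated. Same-numbered deviations correlated at -0.0450, 0.0814, 0.00880 and 0.0230, and differently numbered ones at -0.0704 to 0.130. These correlations cannot exclude a culture or batch shared by same-numbered samples. With the replicate block 1 enzyme, 2 pathway genes and 382 genes were called at both limits, and 5, 11 and 3082 at the adjusted p alone. Levels per kilobase in WT moved by more than 1 SD with the longest transcript for *Ptgs1* (25.3), *Ptges* (35.6), *Ptges3* (71.8), *Ptgis* (151), *Tbxas1* (0.0917) and *Hpgds* (5.42). Depth limits *Tbxas1*, *Ptgds* and WT *Hpgd*, all under 30 counts per WT sample. RNA levels do not give enzyme activity or prostanoid release.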

Other observations

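Counts summed over the 4 samples were 63 in WT and 139 in *Hint1*-/- MASMCs for *Pla2g7*, a ratio of 2.20 with an exact 95% interval of 1.63 to 3.02 for counting error only.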
